A study of Mus musculus with 3 samples.

Results

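Ifitm1, Ifitm2, Ifitm3, Ifitm6, Slfn1, Slfn2, Slfn4 and Slfn5 are 8 genes of the interferon-induced transmembrane (Ifitm) and Schlafen (Slfn) families, chosen by name from the 32285 genes of the table. The choice was made with earlier results of these data known. The raw UMI counts of the 8 genes were read in single cells of the mouse cochlea. They were read across cell types gated by lineage markers and across the libraries of the series. The series has 3 samples of C57BL/6J mouse cochlea, each from 6 mice. They are an unexposed control, a group labelled HHL that was exposed to noise of 110 dB for 2 h, and a group labelled NIHL that was exposed to 115 dB for 4 h for 3 days. Cochleae were collected 6 h after the last exposure and sequenced as 10x 3′ gene expression libraries. No label or file ties a barcode suffix to a group, so the suffixes are called libraries 1, 2 and 3 and are not read as control, HHL or NIHL.

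Libraries 1, 2 and 3 held 132576349, 93048140 and 146324872 UMIs. Barcodes with at least 500 UMIs, at least 200 genes and at most 20% mitochondrial UMIs numbered 16883, 9602 and 10703, with a median of 5464, 6294 and 8098 UMIs. Library 1 stood apart from the others: 6 of 37 clusters made without the 8 genes held at least 90% library 1 cells, and 69.8% of its cells lay in them. Libraries 1 and 2 shared 46 cell barcodes after the filters, libraries 1 and 3 shared 53, and libraries 2 and 3 shared 31. Marker gates placed 81.0%, 81.0% and 70.6% of the cells, and 17 of 25 gated types had at least 50 cells in every library and were compared. A name such as mature neutrophil means a cell like that type. Most gated cells were of blood and marrow lineages, while the hair cell gate held 16, 7 and 0 cells, so nothing is said of hair cells. Levels are UMIs of a gene per 1000000 UMIs (CPM), summed over the cells of a type in a library. A 3′ library counts 1 tag per transcript, so CPM needs no correction for gene length. Intervals are 95% and cover counting error alone (exact Poisson for CPM, Clopper-Pearson for shares of cells). Each library is 1 sample with no replicate, so no test was run.

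Ifitm proteins are small membrane proteins that hinder the entry of enveloped viruses. Ifitm1 acts mainly at the cell surface and Ifitm2 and Ifitm3 mainly in endosomes, and interferon raises their transcription in many cell types. Schlafen genes were first described in T cells, where they are tied to growth arrest and quiescence, and several are interferon-induced in myeloid cells. Slfn1 and Slfn2 encode short proteins, Slfn4 an intermediate one and Slfn5 a long one with a helicase-like part.

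The RefSeq promoter windows are shown first, because the members that differed most between libraries include some with and some without an interferon response motif there. All 8 genes matched by symbol, each with 1 window of 300 bases (build GRCm38.p6, 250 bases before the start and 50 after it). The windows were searched on both strands for the core of the interferon-stimulated response element, GAAA, then any 2 bases, then GAAA. It was present in 1131 of 32851 windows (3.44%) and in 3 of the 8 members, namely Ifitm2, Ifitm3 and Slfn5. By gene, 1079 of 27025 (3.99%) held it, against 17 of 25 interferon-induced effector genes with a window (68%). Ifitm3 held 2 matches on the gene's strand, both within the first 29 bases after the start. Ifitm2 held 1 match that began 46 bases before the start, and Slfn5 held 1 that began 155 bases before it. Ifitm1, Ifitm6, Slfn1, Slfn2 and Slfn4 held no match. A match describes letters only. Capitals below mark the matches, and each sequence runs 5′ to 3′ along the gene's strand over 280 bases, of which the last 30 lie after the start. The first 3 carry the motif. Ifitm6 and Slfn4, the members most alike in their levels over cell types, carry none.
Ifitm3, chr7:141010715-141010994, minus strand: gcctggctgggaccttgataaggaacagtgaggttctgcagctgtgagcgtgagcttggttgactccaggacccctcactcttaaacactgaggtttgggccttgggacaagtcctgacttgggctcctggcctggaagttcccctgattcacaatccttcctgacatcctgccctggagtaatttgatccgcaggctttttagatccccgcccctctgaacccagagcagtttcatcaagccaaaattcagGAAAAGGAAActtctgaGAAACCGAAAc
Ifitm2, chr7:140955932-140956211, minus strand: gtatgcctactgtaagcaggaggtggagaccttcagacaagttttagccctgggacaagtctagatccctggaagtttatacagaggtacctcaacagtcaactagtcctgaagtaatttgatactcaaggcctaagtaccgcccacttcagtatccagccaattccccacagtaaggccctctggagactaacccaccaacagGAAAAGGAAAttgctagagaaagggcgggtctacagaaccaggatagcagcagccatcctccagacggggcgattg
Slfn5, chr11:82951852-82952131, plus strand: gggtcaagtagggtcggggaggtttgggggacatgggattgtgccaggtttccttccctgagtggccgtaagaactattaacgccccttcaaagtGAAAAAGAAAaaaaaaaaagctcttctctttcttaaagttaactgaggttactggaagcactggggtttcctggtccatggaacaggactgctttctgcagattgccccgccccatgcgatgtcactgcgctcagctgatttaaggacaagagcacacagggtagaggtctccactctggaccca
Ifitm6, chr7:141016863-141017142, minus strand: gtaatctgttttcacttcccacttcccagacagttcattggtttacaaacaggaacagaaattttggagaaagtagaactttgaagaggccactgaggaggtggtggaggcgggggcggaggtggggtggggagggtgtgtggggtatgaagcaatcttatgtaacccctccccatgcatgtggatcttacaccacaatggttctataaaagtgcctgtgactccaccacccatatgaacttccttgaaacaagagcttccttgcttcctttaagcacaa
Slfn4, chr11:83174936-83175215, plus strand: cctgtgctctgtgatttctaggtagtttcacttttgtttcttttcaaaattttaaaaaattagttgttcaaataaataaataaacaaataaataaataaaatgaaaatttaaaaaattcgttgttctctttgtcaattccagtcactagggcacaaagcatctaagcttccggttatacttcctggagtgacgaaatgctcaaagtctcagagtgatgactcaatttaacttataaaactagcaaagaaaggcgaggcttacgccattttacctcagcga

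The genes of 1 family can share reads where their transcripts are alike. In the last 500 bases of the GENCODE coding transcripts, where 3′ tags fall, no stretch of 91 bases of any of the 8 members occurred in another member of its family. The share of such stretches shared with a relative was 0% for each of the 8 genes.

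All 8 members varied at least 10-fold between the highest and the lowest of the 17 types in every library, as did 64.8% of the 17374 genes tested. The members fell into several patterns. Ifitm1, Ifitm2 and Ifitm3 had both stromal types and mature neutrophils among their 6 highest types by the median, though Ifitm1 was low in the other neutrophil gates, monocytes and macrophages. Ifitm6, Slfn1 and Slfn4 were highest in mature neutrophils, with Ifitm6 nearly as high in immature ones. Slfn2 was also highest in mature neutrophils but was spread over white blood cells. Slfn5 was highest in endothelial cells, Cxcl12-abundant stromal cells, conventional dendritic cells and macrophages.

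**Figure D1:**
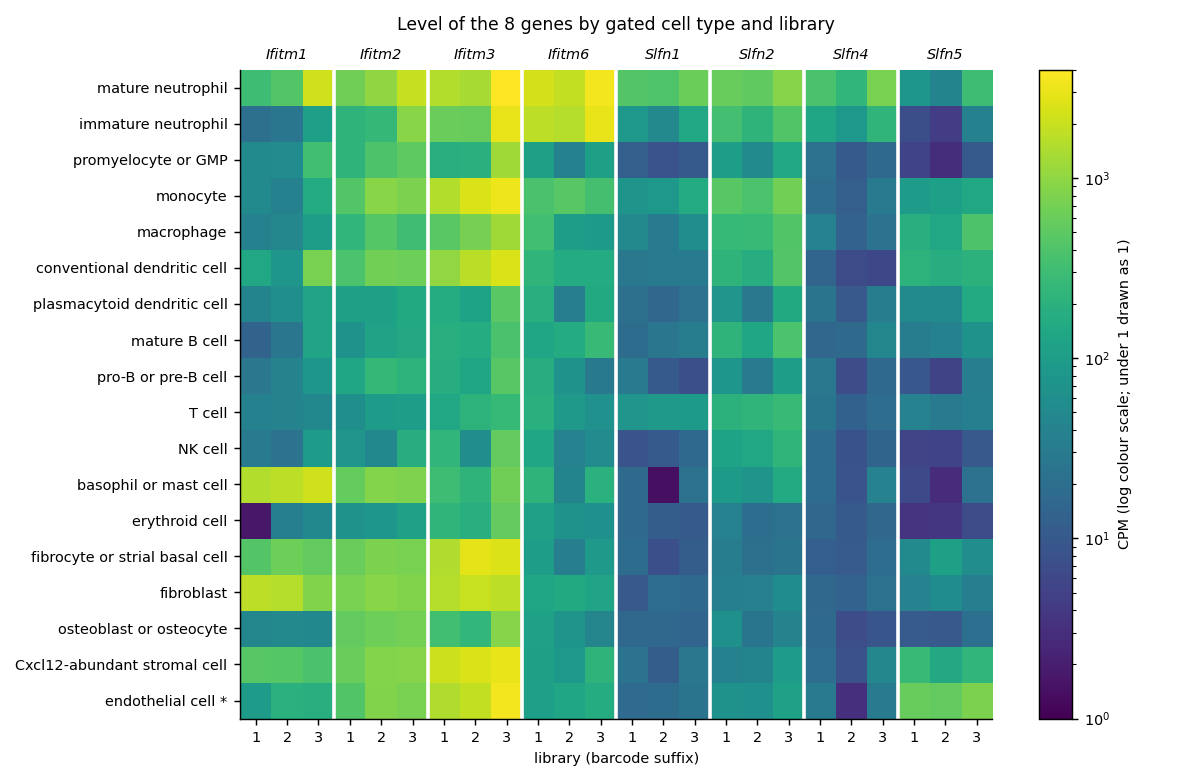
Level of the 8 genes (columns, 3 libraries each) in 17 gated cell types and in endothelial cells (rows), as CPM on a log colour scale. The star marks endothelial cells, which had under 50 cells in library 2 and were not compared. Ifitm6 and Slfn4 are bright in the neutrophil rows, and Slfn5 is brightest in the endothelial row.

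By its median over libraries Ifitm1 was highest in basophil or mast cells. Libraries 1, 2 and 3 showed 1545 (1468 to 1626), 1768 (1671 to 1869) and 2192 (2099 to 2288) CPM there. With each cell thinned to 1000 UMIs, 70.0%, 53.1% and 70.1% of these cells held an Ifitm1 UMI. Fibroblasts came next, at 1724 (1646 to 1804), 1567 (1506 to 1630) and 826.5 (783.5 to 871.2) CPM. The ranges of these 2 types over the libraries overlapped, and in fibroblasts library 3 lay below both others. Fibrocytes or strial basal cells, the connective tissue and barrier cells of the lateral wall, stood at 434, 637 and 553 CPM. Cxcl12-abundant stromal cells of the marrow stood at 466, 448 and 367 CPM, and these types overlapped too. Mature neutrophils held 302 (292.8 to 311.3), 439.5 (426.5 to 452.8) and 2203 (2171 to 2235) CPM, so that in library 3 they matched basophil or mast cells within the intervals. Immature neutrophils were lowest by their median, at 21.4, 26.1 and 108 CPM.

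The Ifitm1 UMIs of fibroblasts lay mostly in 1 cluster, a split found after the values were seen. Fibroblasts in cluster 32 (54, 62 and 67 cells) held 3684, 3887 and 2851 CPM of Ifitm1. Those in cluster 30 (98, 103 and 154 cells) held 11.7, 13.9 and 43.3 CPM. The clusters were made without the 8 genes, and the split was the same way in each library. Ifitm3 was also higher in cluster 32, at 2353, 3146 and 2237 CPM against 851, 1111 and 1384 CPM. Ifitm2 stood at 1038, 1173 and 900.1 CPM against 520.5, 721 and 792 CPM. Slfn2 did not differ one way in every library, at 18.9, 34.6 and 19.4 CPM against 40.9, 18.0 and 29.6 CPM. The genes with the largest fold in cluster 32 over cluster 30 were the chemokine gene Ccl11, at 947 against 1.03 CPM over all libraries, Mybpc1, Gpr83 and Sox11. Cluster 30 was led by the matrix genes Postn (2891 against 1.39 CPM), Epyc and Col1a1 (5761 against 9.70 CPM). The cells of cluster 32 thus nearly lacked Postn and Col1a1, and they are called fibroblasts by the gate alone. Across single fibroblasts thinned to 2000 UMIs, Ifitm1 and Ifitm3 had a Pearson r of 0.42, 0.63 and 0.30 over 171, 176 and 252 cells. These cells share a library and a depth, and the values are descriptions.

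Ifitm2, the endosomal relative of Ifitm3, was spread evenly for a member, with its highest type at 12.3, 20.9 and 18.7 times the lowest. This was the smallest such ratio of the 8 genes in libraries 1 and 2, while in library 3 Ifitm3 was lower at 15.2. Mature neutrophils held 671 (657.3 to 684.9), 1001 (981.4 to 1021) and 1910 (1880 to 1940) CPM. Cxcl12-abundant stromal cells held 609, 865 and 888.5 CPM, and fibroblasts 759, 917.5 and 825 CPM. Each of the first 7 types in the order overlapped its neighbour. Lymphoid and erythroid types stood below, with NK cells at 75.3, 47.8 and 174.5 CPM and T cells at 61.6, 98.7 and 102 CPM. In library 1 this gene was lowest in 16 of 17 types.

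Ifitm3 is the member best known for restricting influenza virus. Fibrocytes or strial basal cells held 1496, 2860 and 2569 CPM, monocytes 1552, 2506 and 3266 CPM and Cxcl12-abundant stromal cells 2108, 2483 and 3020 CPM. These 3 types overlapped. Endothelial cells, not compared because library 2 had 48 of them, held 1489, 1877 and 3425 CPM. Mature neutrophils held 1515 (1494 to 1536), 1357 (1334 to 1380) and 3914 (3872 to 3957) CPM, so they were the highest type in library 3 and not in the others. By the median over libraries plasmacytoid dendritic cells were lowest, at 169, 121.5 and 483 CPM, and pro-B or pre-B cells stood at 176, 137 and 459.5 CPM. Within libraries the lowest type was T cells in libraries 1 and 3, at 143.5 and 258 CPM, and NK cells in library 2, at 61.1 CPM.

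Ifitm6 was highest in the later neutrophil gates. Mature neutrophils held 2380 (2354 to 2406), 1891 (1864 to 1918) and 3494 (3454 to 3534) CPM and immature neutrophils 1776, 1581 and 2994 CPM, and the 2 ranges overlapped. Monocytes came next, at 370, 459 and 351 CPM, below every value of these 2 types. The highest value of any other type was 321 CPM, in macrophages of library 1. Cells of the neutrophil gates held 69.1%, 62.5% and 70.4% of all Ifitm6 UMIs, and 52.1%, 24.5% and 27.0% of all UMIs.

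Slfn1, which restrains the growth of T cells when forced on, was also highest in mature neutrophils, at 437 (425.8 to 448.1), 404 (391.7 to 416.9) and 613 (596 to 629.7) CPM. Every value lay above every value of the other 16 types. T cells held 75.4, 85.7 and 92.9 CPM, immature neutrophils 83.7, 49.9 and 139 CPM and monocytes 73.0, 83.0 and 164 CPM, and these 3 types overlapped. The highest value of any other type was 58.5 CPM, in macrophages of library 3.

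Slfn2, needed for the quiescence of T cells and monocytes, was the broadest Schlafen gene. Mature neutrophils held 584, 528 and 883 CPM, monocytes 458.5, 382.5 and 694 CPM and macrophages 263, 264 and 427 CPM. T cells held 210, 229 and 272 CPM and mature B cells 221, 130 and 383 CPM, and their ranges overlapped that of macrophages. The lowest medians were those of fibrocytes or strial basal cells and erythroid cells. Fibrocytes or strial basal cells held 33.6, 21.7 and 24.4 CPM and erythroid cells 39.0, 19.8 and 22.3 CPM.

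Slfn4, a myeloid Schlafen gene, was the most restricted member. Mature neutrophils held 365 (355.4 to 375.7), 235 (225.2 to 244.5) and 766 (747 to 784.7) CPM and immature neutrophils 130, 83.9 and 229 CPM. The ranges of these 2 types over the libraries did not overlap, and neither overlapped the range of any other type. The highest value of the remaining 15 types was 46.4 CPM, in Cxcl12-abundant stromal cells of library 3. Cells of the neutrophil gates held 70.9%, 71.1% and 71.8% of all Slfn4 UMIs.

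Slfn5, the long-form member, had another pattern. Endothelial cells held 573.5 (514.9 to 636.9), 541 (463.3 to 627.2) and 784 (719.5 to 852.5) CPM, above every compared type in the same library. At 1000 UMIs per cell, 36.6%, 30.4% and 46.5% of 82, 46 and 86 endothelial cells held a Slfn5 UMI. Among the compared types, Cxcl12-abundant stromal cells held 267, 149 and 238.5 CPM, conventional dendritic cells 213, 178 and 209.5 CPM and macrophages 186, 146 and 400 CPM, with overlapping ranges. Promyelocytes held 5.35, 3.00 and 10.6 CPM and erythroid cells 3.46, 3.72 and 6.56 CPM, the lowest medians of this gene. In library 2 basophil or mast cells lay lower still, at 2.85 CPM on 2 UMIs.

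**Figure D2:**
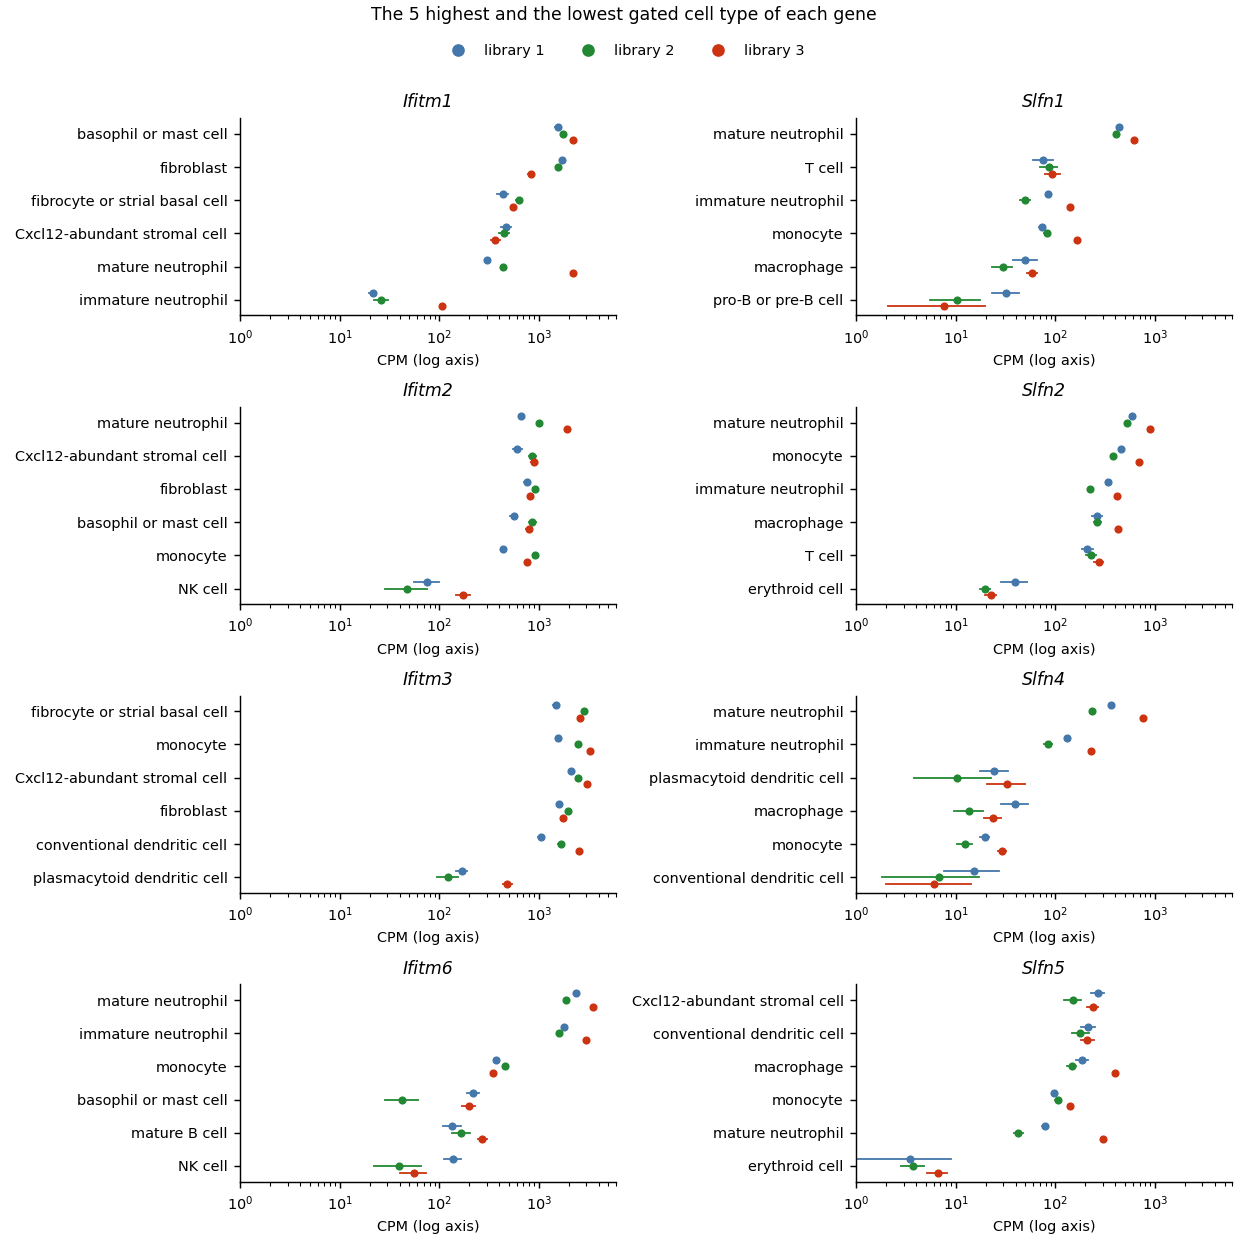
For each gene, the 5 gated types with the highest median over libraries and, at the bottom, the type with the lowest. Points are CPM in libraries 1, 2 and 3 on a log axis and lines are 95% Poisson intervals. The library 3 point lies far right of the others for Ifitm1 in mature neutrophils (2203 against 302 and 439.5 CPM), and left of them for Ifitm1 in fibroblasts.

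The 3 neutrophil gates, from promyelocyte or granulocyte-monocyte progenitor through immature to mature neutrophil, separated the members further. In libraries 1, 2 and 3 Ifitm6 was 15.98, 41.3 and 27.04 times as high in immature neutrophils as in promyelocytes, but only 1.34, 1.20 and 1.17 times as high again in mature ones. Ifitm1 did the reverse. It was lower in immature neutrophils than in promyelocytes in each library, at 0.40, 0.48 and 0.34 times the level. In mature neutrophils it was then 14.1, 16.8 and 20.5 times as high as in immature ones. With cell types taken from clusters, the lower level in immature neutrophils was not seen in library 1. Ifitm1 was then at 6.57, 65.3 and 374 CPM in promyelocytes and at 29.85, 30.2 and 127 CPM in immature neutrophils. Slfn5 was like Ifitm1 in its late step, at 10.6, 9.51 and 7.97 times from immature to mature. Ifitm2 was at 1.002, 0.65 and 1.80 times from promyelocyte to immature neutrophil, with no common direction. The other 6 members were higher at each step in every library. Slfn1 was 6.86, 6.05 and 13.5 times as high in immature neutrophils as in promyelocytes and then 5.22, 8.09 and 4.396 times as high in mature ones. These gates are ranges of marker expression in separate cells and not a time course.

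**Figure D3:**
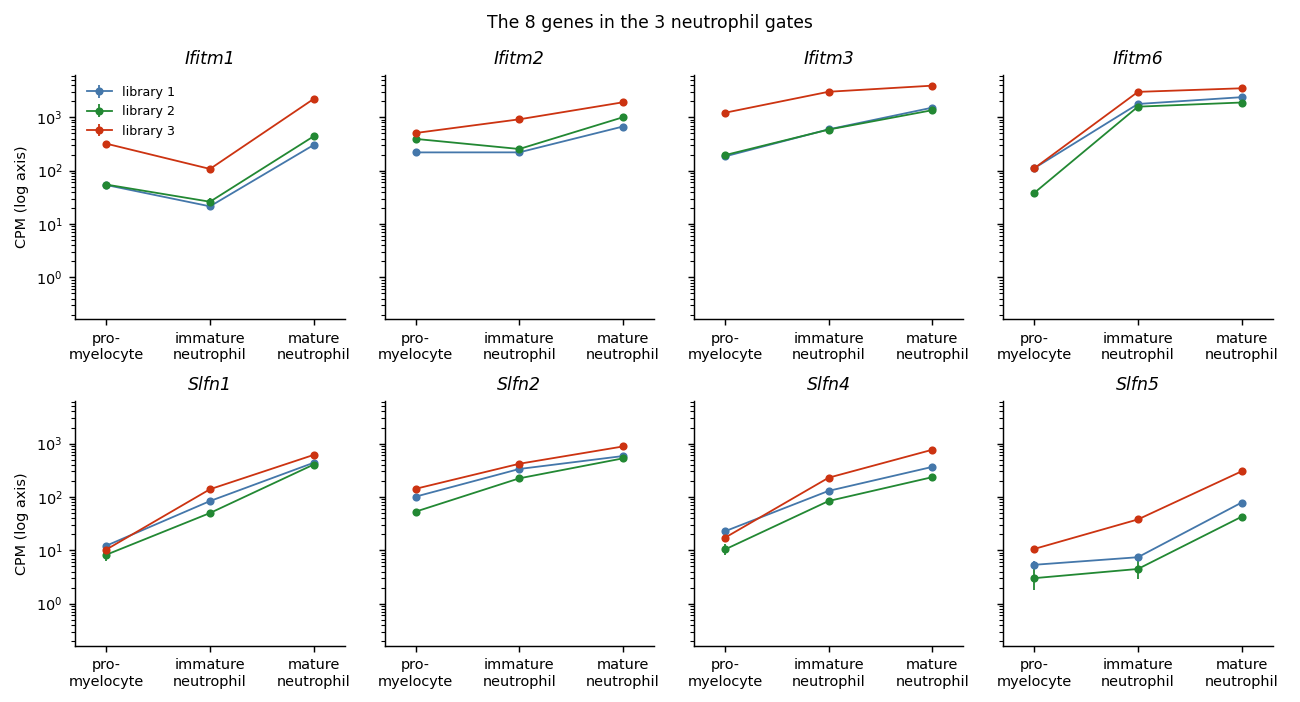
CPM of the 8 genes (log axis) in the promyelocyte, immature neutrophil and mature neutrophil gates of libraries 1, 2 and 3, with 95% Poisson intervals. Ifitm6 is already high in immature neutrophils, while Ifitm1 dips there and is high in mature ones. The library 3 line runs above the others for Ifitm1 and Ifitm3.

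The same split was seen between mature neutrophils of different clusters. Cluster 17 had 1891 and 937 mature neutrophils of libraries 2 and 3, and cluster 16 had 570 and 618. Ifitm1 stood at 658 and 3856 CPM in cluster 17 and at 102 and 790 CPM in cluster 16. Ifitm6 went the other way, at 1024 and 2078 CPM in cluster 17 and 3501 and 4985 CPM in cluster 16. The granule genes Ltf (5845 against 166 CPM), Camp and Ngp led cluster 16 over cluster 17, and all 3 are markers of the immature neutrophil gate. Across single mature neutrophils thinned to 2000 UMIs, the r of Ifitm1 with Ifitm6 was -0.07, -0.21 and -0.25 over 3361, 2160 and 1669 cells.

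Between libraries, a member was called above in a type where its CPM was at least 2 times that of each other library, and below where it was at most 1/2 of each, with at least 20 summed UMIs. The members were chosen with earlier results of these data known, so their shares of calls are descriptions. There were 135 member-type pairs. Library 3 was above in 32 of them (23.7%), where the same rule called 1.94% of all gene-type pairs. It was below in 1, against 3.00% of all pairs. Library 2 was below in 13 pairs (9.63%), against 2.29% of all pairs, and above in 0, against 1.41%. Library 1 was above in 6 pairs (4.44%), against 2.25%, and below in 1, against 2.03%. With called doublets left out, 24 of the 32 calls of library 3 were made again. Those not made again were Ifitm1, Ifitm2 and Ifitm3 in NK cells, Ifitm1 and Slfn4 in mature B cells, Slfn4 and Slfn5 in basophil or mast cells, and Slfn2 in Cxcl12-abundant stromal cells.

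The calls of library 3 lay in some members and not in others. Ifitm1 and Ifitm3 were above in 9 types each, Slfn5 in 6, Slfn4 in 4, Ifitm2 and Slfn2 in 2 each, and Ifitm6 and Slfn1 in 0. The difference between these members was not tested. In the neutrophil gates the counts were 4 of 8 members in mature neutrophils, where 2.73% of all genes were called, 4 of 8 in immature neutrophils (2.04% of all genes) and 2 of 8 in promyelocytes (2.52%). All 10 of these calls were made again without called doublets, and 9 of 10 with cell types taken from clusters. The exception was Slfn4 in mature neutrophils, which then stood at 376, 240 and 734 CPM.

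In mature neutrophils Ifitm1 was 7.30-fold (7.05 to 7.55) higher in library 3 than in library 1 and 5.01-fold (4.85 to 5.18) higher than in library 2. With each cell thinned to 1000 UMIs, 15.4% (14.3 to 16.6), 24.3% (22.6 to 26.0) and 54.5% (52.1 to 56.9) of them held an Ifitm1 UMI. Without thinning the shares were 27.7%, 37.9% and 73.8%, at median depths of 2786, 3306 and 4297 UMIs. Ifitm3 was 2.58-fold (2.54 to 2.63) and 2.88-fold (2.83 to 2.94) higher. Slfn5 was at 78.3, 42.4 and 302 CPM, 3.85-fold (3.59 to 4.14) and 7.11-fold (6.41 to 7.90) higher in library 3. Ifitm2 was 2.85-fold higher than in library 1 and 1.91-fold higher than in library 2, short of a call.

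In immature neutrophils Ifitm3 stood at 593 (584.9 to 602), 588 (569.2 to 608) and 3008 (2977 to 3040) CPM. Libraries 1 and 2 did not differ beyond their intervals, and library 3 was 5.07-fold (4.98 to 5.16) above library 1. Ifitm2 was at 220, 254 and 916 CPM, Ifitm1 at 21.4, 26.1 and 108 CPM and Slfn5 at 7.41, 4.47 and 37.9 CPM. In promyelocytes Ifitm3 was at 184.5, 195 and 1216 CPM and Ifitm1 at 53.7, 54.8 and 320 CPM, each about alike in libraries 1 and 2. With cell types taken from clusters libraries 1 and 2 were not alike: Ifitm3 was then at 72.4, 190 and 1168 CPM and Ifitm1 at 6.57, 65.3 and 374 CPM. Ifitm6 in the same cells was at 111, 38.3 and 111 CPM, and without called doublets at 66.0, 30.8 and 92.2 CPM.

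Library 1 took its neutrophils mostly from other clusters than libraries 2 and 3. Mature neutrophils of libraries 2 and 3 lay mostly in the same clusters but in unlike shares. Cluster 17 held 73.15% and 54.6% of them and cluster 16 held 22.05% and 36.0%. Members were therefore also read within a cluster, a step chosen after the values were seen. In mature neutrophils of clusters 16 and 17, library 3 was higher than library 2 in 16 of 16 member-cluster pairs and at least 2 times as high in 10. In cluster 14, the one with at least 50 mature neutrophils in libraries 1 and 3, Ifitm1 stood at 451 and 2595 CPM over 2268 and 113 cells, and library 3 was higher for 8 of 8 members but at least 2 times as high for 3. Slfn4, at 343 and 658 CPM, and Slfn5, at 112 and 206.5 CPM, were under 2 times there. The share of all genes higher in library 3 within these clusters was not computed. The counts of members within clusters thus have no background beside them. In immature neutrophils of cluster 22, with 385 and 461 cells, Ifitm3 stood at 514 and 2951 CPM in libraries 2 and 3. In promyelocytes of cluster 25 it stood at 158 and 1062 CPM.

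Outside the neutrophil gates, Slfn5 in macrophages was at 186 (161.2 to 213), 146 (131.8 to 161.3) and 400 (381.6 to 418.4) CPM, and Ifitm1 there was at 38.1, 46.0 and 106 CPM. These were the 2 of 8 members called in macrophages, where 1.69% of all genes were called. Nearly all macrophages lay in cluster 3 (98.6%, 97.7% and 95.8% of them), which held cells of all libraries, and Slfn5 there was at 187, 149 and 404 CPM. Ifitm6 went the other way in macrophages, at 321, 101 and 92.3 CPM, and its library 1 level was 1.06 times what free neutrophil RNA could bring there (the measure is described with the free RNA values). Plasmacytoid dendritic cells, the main makers of type I interferon, had 4 of 8 members above in library 3, where 1.92% of all genes were called. Slfn5 was at 51.8, 51.3 and 161 CPM in them and Ifitm3 at 169, 121.5 and 483 CPM. With types from clusters the Ifitm3 call was not made again, at 224.5, 108.5 and 295 CPM. The Ifitm1 level of plasmacytoid dendritic cells in library 3 was 1.35 times what free neutrophil RNA could bring there. Ifitm3, Slfn2 and Slfn5 were at 2.93, 4.14 and 12.7 times. Ifitm1 in conventional dendritic cells was at 140, 79.0 and 745.5 CPM, over 98, 62 and 63 cells. Osteoblasts or osteocytes held Ifitm3 at 327, 239 and 885 CPM.

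Fibroblasts and fibrocytes or strial basal cells, each taken as a whole gate, did not share this pattern. Ifitm3 in fibroblasts was 1.09-fold (1.02 to 1.15) higher in library 3 than in library 1 and 0.88 times (0.83 to 0.92) the level of library 2. In fibrocytes or strial basal cells it was 1.72-fold (1.60 to 1.85) and 0.90 times (0.86 to 0.94). Ifitm1 in fibroblasts was 0.48 times (0.45 to 0.51) and 0.53 times (0.49 to 0.56). No member was called above in library 3 in either type, where 1.35% and 1.47% of all genes were. Within the fibroblast gate clusters 30 and 32 differed. In cluster 30 Ifitm1 stood at 11.7, 13.9 and 43.3 CPM and Ifitm3 at 851, 1111 and 1384 CPM, both highest in library 3. In cluster 32 Ifitm1 stood at 3684, 3887 and 2851 CPM and Ifitm3 at 2353, 3146 and 2237 CPM, both lowest in library 3. Over all genes tested, the median log2 ratio of library 3 to library 1 within a type lay between -0.32 and -0.02, and that to library 2 between -0.15 and 0.16. Over the types tested, Ifitm3 had a median log2 ratio of 1.26 to library 1 and 1.53 to library 2, Ifitm1 1.56 and 1.02, and Ifitm6 -0.25 and 0.47.

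**Figure D4:**
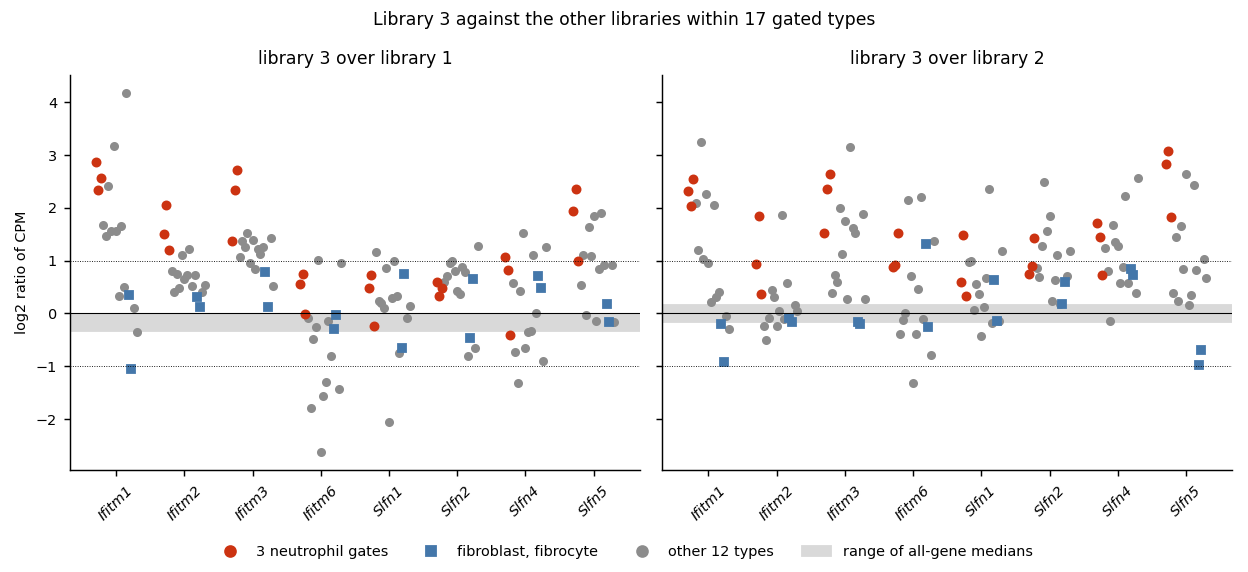
Log2 ratio of CPM in library 3 to library 1 (left) and to library 2 (right) for each gene, 1 point per gated type, with counts under 3 set to 3. The grey band is the range of the all-gene medians and dotted lines mark 2-fold. Red points (neutrophil gates) of Ifitm1 and Ifitm3 lie above 1 in both panels, and the highest blue square (fibroblasts and fibrocytes) of these 2 genes is at 0.78.

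Neutrophil RNA free in the suspension can place UMIs of neutrophil genes in other cells. S100a8, a calprotectin gene of neutrophils, stood at 109986, 132361 and 135342 CPM in mature neutrophils. In the other 14 compared types outside the neutrophil gates it lay between 3817 and 13959, 1885 and 8617, and 1314 and 9677 CPM in libraries 1, 2 and 3. The level of a member that such RNA could bring was its level in mature neutrophils times the S100a8 level of the type over that of mature neutrophils. Over the 42 values of the 14 types and 3 libraries, the measured level of Slfn4 was a median of 1.01 times this level (0.51 to 3.07). Ifitm6 was at a median of 1.12 times (0.48 to 9.55) and Slfn1 at 1.01 times (0.18 to 14.04). Slfn4 thus reached 2 times in every library in 0 of 14 types, Ifitm6 in 1, conventional dendritic cells, and Slfn1 in 2, monocytes and T cells. Values at or near this level do not show expression in those types. All 6 calls of library 1 above were under 2 times the free RNA level in that library: 4 of Ifitm6, 1 of Slfn1 in pro-B or pre-B cells and 1 of Slfn4 in conventional dendritic cells. Of the 13 calls of library 2 below, 8 were under 2 times it. Ifitm6 in promyelocytes, also among the 13, lay in a neutrophil gate, where the ratio was not taken. The part of free RNA in these calls was not tested beyond this ratio.

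The other members lay above the free RNA level by their medians, but not in every type. Slfn5 was at a median of 9.47 times this level, Ifitm2 at 8.27, Ifitm3 at 6.99, Slfn2 at 3.67 and Ifitm1 at 3.05 times. Their lowest values were 0.69, 1.085, 1.09, 0.91 and 0.09 times, in that order. Slfn5 reached 2 times in every library in 10 of 14 types, Ifitm3 in 9, Ifitm2 in 8, and Ifitm1 and Slfn2 in 6 each. Ifitm1 was under 2 times in every library in mature B cells and T cells. Slfn2 was so in erythroid cells, fibroblasts and Cxcl12-abundant stromal cells. Of the 22 calls of library 3 outside the neutrophil gates, 13 had a library 3 level of at least 2 times the free RNA level. Among these 13 were Ifitm1, Ifitm2 and Ifitm3 in NK cells (2.08, 4.225 and 6.45 times), which were not made again without called doublets. Slfn5 in macrophages was at 48.7 times, Ifitm1 in conventional dendritic cells at 23.8 times and Ifitm3 in osteoblasts or osteocytes at 23.3 times. The other 9 calls were under 2 times, among them Ifitm1 in monocytes (1.46), macrophages (1.77) and mature B cells (0.80), and Slfn4 in 3 types. The same limit holds for these 9.

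**Figure D5:**
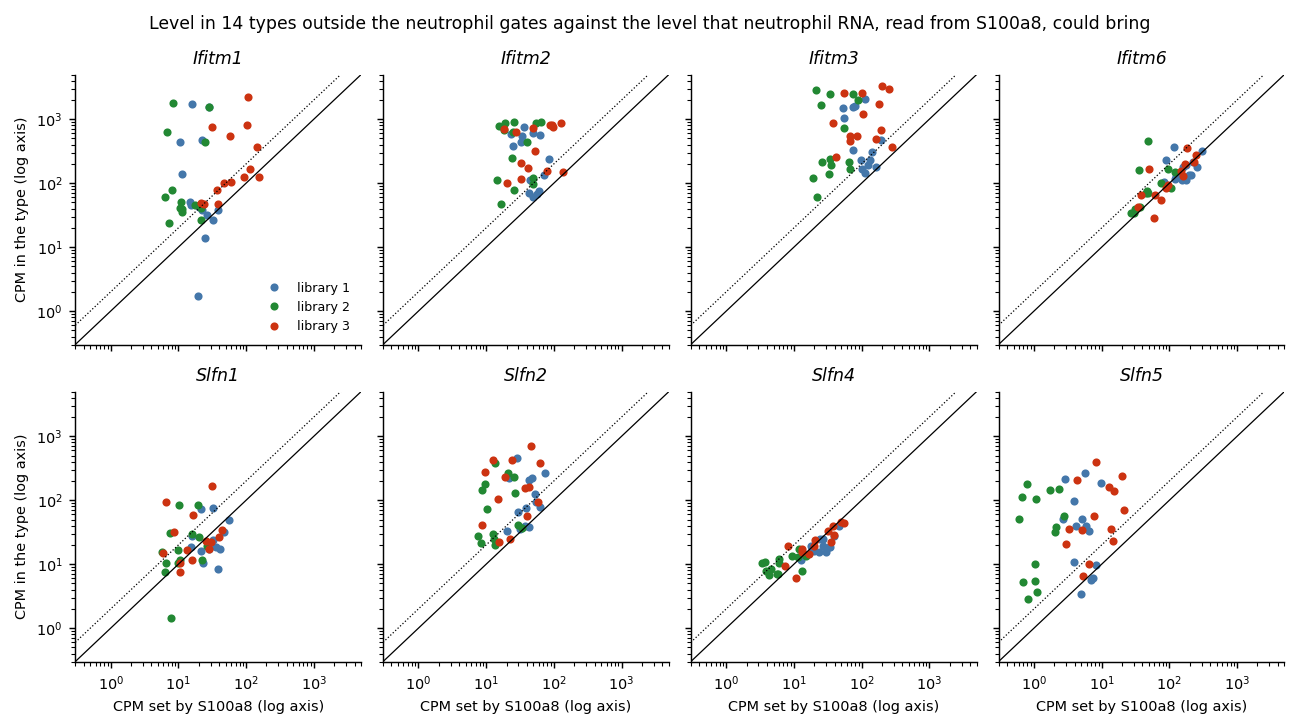
CPM of each gene in the 14 types outside the neutrophil gates (vertical) against the CPM that neutrophil RNA could bring, read from S100a8 (horizontal), both on log axes, 1 point per type and library. The solid line marks equal levels and the dotted line 2 times. Slfn4 points lie along the solid line, with a median of 1.01 times, and most Slfn5 and Ifitm3 points lie above the dotted line.

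The genes most like each member were taken as the 3 with the highest Pearson r of log2(CPM + 1) over 51 type-by-library points, among 13303 genes. These points share libraries and depth, and r is a description. Ifitm6 was most like Fpr2, the formyl peptide receptor of neutrophils, with r of 0.93, and Mcemp1 with 0.91. Slfn4 was most like Lcn2 (0.88), an iron-binding granule protein and a marker of the immature neutrophil gate, Gm29264 (0.88) and Il1f9 (0.88). Slfn2 was most like AB124611 (0.89) and the actin regulators Cotl1 (0.89) and Actr3 (0.88). Slfn5 was most like Mvp (0.86), Tor1aip1 (0.84) and Samhd1 (0.83), an interferon-induced restriction factor. Ifitm3 was most like Tgfbi (0.85), Oasl2 (0.81), an interferon-induced gene, and Ifitm2 (0.80). Ifitm2 was most like Rsu1 (0.81), Ier3 (0.81) and Ifitm3. Slfn1 was most like S100a6, Cd300lf (both 0.82) and 6430548M08Rik (0.81). Ifitm1 had the lowest likeness to its nearest gene, Scin, an actin-severing protein, at 0.75, followed by Ifitm2 at 0.74. Between members, Ifitm6 and Slfn4 were the closest pair (0.86), and Ifitm1 and Slfn2 the least alike (-0.03).

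Other genes of the interferon pathway were read with the same rule, in lists also chosen with earlier results of these data known. Of 21 ligand genes, 6 had any UMI, and 3 gene-type pairs could be tested, of which 1 was above in library 3. Ifnb1, the beta interferon gene, was at 0.06, 0.01 and 0.55 CPM over all kept cells, on 89 UMIs in all, and Ifng at 1.99, 1.62 and 2.04 CPM. Against 1.94% of all gene-type pairs, receptors and signal transducers were above in library 3 in 39 of 259 pairs (15.1%). The kinase gene Jak1 of this list, named for its high level, was highest in library 1. It stood at 178, 140.3 and 140.4 CPM over all kept cells. The 32 interferon-induced effectors outside both families were above in library 3 in 206 of 469 pairs (43.9%) and below in library 2 in 88. Of all gene-type pairs, 1.94% and 2.29% were so called. In mature neutrophils 20 of 31 effectors were above in library 3, in macrophages 24 of 31, and in fibroblasts and in fibrocytes or strial basal cells 0 of 28 each. Of all genes, 2.73%, 1.69%, 1.35% and 1.47% were called in these types, in that order. No member was above in library 3 in the last 2 types, nor in T cells, where 6 of 27 effectors and 1.44% of all genes were. Over all kept cells Ifi27l2a stood at 355, 347 and 818 CPM, Bst2, which tethers virus particles, at 96.8, 91.8 and 249 CPM, and Samhd1 at 304, 220 and 298 CPM. The make-up of the cells differs between libraries and moves with such sums.

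Other genes of both families were read too. Ifitm5, a bone gene of the Ifitm family, stood at 967 (915.5 to 1020), 1037 (984.1 to 1092) and 778 (705.3 to 856.6) CPM in osteoblasts or osteocytes. It was lower in library 3, the opposite of Ifitm3 in the same cells. Slfn14, known from red cells and platelets, stood at 33.8, 103 and 41.8 CPM in erythroid cells. Slfn8 in mature neutrophils was at 29.2, 15.4 and 70.9 CPM, and in plasmacytoid dendritic cells at 44.9, 51.3 and 108 CPM. Slfn9 in monocytes was at 39.1, 21.5 and 52.9 CPM and in mature neutrophils at 2.20, 1.62 and 3.49 CPM. Over all kept cells, Slfn3 was at 3.502, 2.55 and 4.498 CPM, Ifitm10 at 3.75, 4.14 and 2.32 CPM and Ifitm7 at 1.11, 0.72 and 0.43 CPM. Library 3 was above in 7 of 43 tested pairs of the other Schlafen genes and in 0 of 14 pairs of the other Ifitm genes. The same rule called 1.94% of all gene-type pairs, and 0 of 14 is near that share.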

How the data were processed

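The authors deposited 1 table of raw UMI counts (genes by barcodes, with barcode suffixes 1 to 3), made with Cell Ranger 7.1.0 per the file headers. The genome build was GRCm39 per the submitters' processing notes, with other settings not given in the sources used here. A suffix is called a library. 0 columns of per-sample values were left unused.

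Barcodes were kept at 500 UMIs or more, 200 genes or more and 20% mitochondrial UMIs or fewer. Median depths were 5464, 6294 and 8098 UMIs. For each of 25 marker lists a cell got the mean log2 ratio of its UMIs per 10000 to those of the pool. A cell took the list with a score of at least 0.75, at least 0.5 above the next, on at least 2 markers and 3 UMIs. This scoring rule was set after the data were seen. Types needed 50 cells in every library. Called doublets (scrublet in scanpy 1.11.5, 5.71% of kept cells) stayed in the main values and were left out in an alternative. Leiden clusters were made without the members and the interferon lists. UMIs were summed per type and library and divided by the type's total UMIs. Counts under 3 were set to 3 in calls and ratios. Thinning drew 1000 UMIs per cell, left out shallower cells (22, 40 and 5 mature neutrophils), and used seed 1. The calling code was tested on simulated counts with 200 changed genes.

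The members and lists were chosen with earlier results of these data known. Genes named are the members, the 3 genes most like each (at least 200 UMIs), up to 4 genes with the highest CPM per interferon list, and the other family genes with at least 20 UMIs. Cluster splits, values within clusters and the genes that lead clusters were added after the values were seen. Alternatives were types from clusters, CPM without hemoglobin, S100a8, S100a9 and mitochondrial UMIs, TMM factors (edgeR 4.0.16 in R 4.3.3), a minimum of 1000 UMIs, a mitochondrial maximum of 10%, a fold of 1.5, no minimum of summed UMIs, thinning to 2000 UMIs or none, S100a9 for S100a8, and a gate score of at least 1, the last one chosen after seeing the data. Sequences are from RefSeq promoters (GRCm38.p6) and GENCODE transcripts of GRCm38, used for sequence and names alone. A planned comparison of the member proteins was not run. Scripts ran in Python 3.11.15 with scipy 1.17.1 for intervals, pandas 2.3.3 for tables and matplotlib 3.10.9 for figures. One gene that the rule for named genes covers is not reported here.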

Additional observations from a re-analysis of the deposited data

How the results depend on the processing

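The number of member-type pairs with library 3 above both others was 32 and stayed between 27 and 40 under every alternative except the fold of 1.5, which gave 57. With called doublets left out, library 1 was above in 11 pairs instead of 6 and below in 2 instead of 1, library 2 was above in 1 instead of 0 and below in 8 instead of 13, and library 3 was below in 0 instead of 1. With types from clusters, library 1 was above in 2 pairs and below in 6. With TMM factors, library 1 was below in 3 pairs. Library 2 was above in 1 pair with the mitochondrial maximum of 10%, and in 1 with the gate score of at least 1. With the fold of 1.5, library 1 was above in 14 pairs and below in 14, library 2 above in 1 and below in 32, and library 3 below in 3. A wider fold admits more pairs by construction, clusters left 13 types to compare, and for the other moves the cause was not tested. Of the 53 calls, 37 were made again without called doublets and 51 with TMM factors, and 28 of the 35 in types compared by clusters were made again with those types. In 15 of 24 gene-library cases the type with the highest share of cells with a UMI at 1000 UMIs was also the type with the highest CPM, against 16 at 2000 UMIs and 9 without thinning. All 8 members kept a 10-fold range between types in every library under the alternatives run, apart from types from clusters, where 7 did. The level of a member in its highest type, over 162 recomputed values, stayed within its counting interval in 110 and lay at 0.86 to 1.44 times the main value in all. Of 336 values, 182 were at least 2 times what free neutrophil RNA could bring with S100a8 and 185 with S100a9. Depth limits rare types: erythroid cells of library 1 held 2 Ifitm1 UMIs. No paired analysis was possible because each library is 1 sample, no label ties it to a group, and the groups have 1 sample each.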
